A study of Mus musculus with 4 samples.

Results

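Genes of the choice between follicular helper and effector T cells are described here in T helper 2 (Th2) cells of the mouse lung, namely Bcl6, Prdm1, Il21, Sh2d1a and Tox. They were picked by gene symbol, and all 5 were found among the 11883 genes of the authors' deposited table. The RNA came from lungs of C57BL/6 mice on a chronic course of papain, a protease from papaya used to set off allergic inflammation of the airways. Cells were sorted as live, CD4+ and T1/ST2+ (the interleukin-33 receptor, product of Il1rl1) after digestion with collagenase and DNase. One genotype was Klrg1Cre Gata3(fl/fl), called Klrg1Cre here, in which a Cre recombinase named for Klrg1 is combined with Gata3 alleles that Cre can cut. Its control was Gata3(fl/fl), called control, which carries the floxed alleles without Cre. Each genotype had 2 samples, and nothing states that these came from separate mice, so p-values measure the spread between samples, which may be technical. Age and sex are not given in the sources used here. No group carried Klrg1Cre without floxed Gata3, so effects of the Cre allele and of cutting Gata3 cannot be told apart. Gata3 itself had the higher mean in the Klrg1Cre samples, at 293.9 CPM against 221.4 CPM in control (unadjusted p = 0.0115, adjusted p = 0.551 in the authors' deposited table). A mean over the whole gene does not show whether floxed parts were cut, and cutting in the sorted cells was not tested. The headers name the groups ILC2 deficient and WT, where ILC2 are group 2 innate lymphoid cells, and these were read as Klrg1Cre and control since WT fits the genotype that lacks Cre. The labels do not state this link.

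Follicular helper T cells (Tfh) live in B cell follicles, where they direct germinal centres and antibody maturation. BCL6, a zinc finger repressor encoded by Bcl6, sets up this fate, and BLIMP-1, the zinc finger repressor encoded by Prdm1, opposes it, each repressing the gene of the other. Interleukin-21 (Il21) is the cytokine by which Tfh act on B cells, SAP (Sh2d1a) is the adaptor that lets T cells hold lasting contacts with B cells through SLAM family receptors, and TOX (Tox) is an HMG-box factor of T cell development, exhaustion and Tfh differentiation. In the lung, BLIMP-1 is also a factor of effector and tissue-resident T cells and of regulatory T cells.

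The sequences upstream of the start sites of Bcl6, Prdm1 and Il21 are shown because STAT factors, BCL6, BLIMP-1 and NFAT are known to act on genes of this circuit. They are the 250 bases before each annotated start, from the RefSeq promoter table of build GRCm38.p6, all on the minus strand and written 5′ to 3′ in the direction of the gene. The table held no entry for Sh2d1a and Tox. Capitals in Bcl6 mark the STAT-type letters TTCNNNGAA, and those in Il21 mark the NFAT core GGAAA on either strand.
Bcl6, inner start, chr16:23981284-23981533: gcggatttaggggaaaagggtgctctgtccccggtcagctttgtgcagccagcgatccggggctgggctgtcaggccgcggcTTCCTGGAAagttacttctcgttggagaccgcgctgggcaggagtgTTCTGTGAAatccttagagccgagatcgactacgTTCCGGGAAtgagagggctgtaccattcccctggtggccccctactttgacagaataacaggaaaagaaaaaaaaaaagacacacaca
Bcl6, outer start, chr16:23988853-23989102: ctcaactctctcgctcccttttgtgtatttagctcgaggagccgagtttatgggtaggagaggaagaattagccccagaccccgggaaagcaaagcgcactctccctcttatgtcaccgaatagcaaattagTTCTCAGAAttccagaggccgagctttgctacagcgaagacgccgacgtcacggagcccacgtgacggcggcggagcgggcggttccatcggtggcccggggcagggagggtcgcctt
Prdm1, chr10:44458749-44458998: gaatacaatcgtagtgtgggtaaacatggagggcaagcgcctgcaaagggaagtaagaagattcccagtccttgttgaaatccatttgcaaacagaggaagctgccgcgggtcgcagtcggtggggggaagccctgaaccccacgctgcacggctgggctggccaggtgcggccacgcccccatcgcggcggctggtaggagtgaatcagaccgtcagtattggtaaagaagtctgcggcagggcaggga
Il21, chr3:37232637-37232886: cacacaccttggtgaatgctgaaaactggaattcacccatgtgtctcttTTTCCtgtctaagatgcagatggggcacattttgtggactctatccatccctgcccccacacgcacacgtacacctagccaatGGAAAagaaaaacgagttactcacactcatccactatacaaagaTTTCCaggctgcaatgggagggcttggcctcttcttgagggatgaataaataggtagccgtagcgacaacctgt
The inner Bcl6 window held 3 matches to TTCNNNGAA and the outer one 1 match. Among all 32851 windows of the same length in the table, 7.02% held at least 1 match and 9 windows held 3 or more. The first match of the inner window also fits the narrower BCL6 core TTCCTNGAA, a subset of the STAT-type letters found in 1.31% of windows. Il21 held 3 matches to GGAAA, a short motif with at least 1 match in 55.6% of windows and 3 or more in 6.39%. The inner Bcl6 window also held 3, of which 1 overlaps a STAT-type match, and the outer one held 1. The BLIMP-1 core AGNGAAAG, found in 7.30% of windows on either strand, was in none of these 4 windows. The Prdm1 window held none of the 4 motifs. A match is a description of letters and not a binding site.

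In the Klrg1Cre cells the 2 opposing repressors Bcl6 and Prdm1 both had lower means, Sh2d1a was lower as well, Il21 was higher and Tox was close to its control level. None of the 5 passed the authors' adjusted p of 0.05, which 7 of 11883 genes (0.0589%) did, 3 of them higher (0.0252%) and 4 lower (0.0337%). Lower means in Klrg1Cre, seen here for 3 of 5 genes, were listed for 49.4% of all genes. At the authors' unadjusted p below 0.05, Prdm1 and Sh2d1a were lower and Il21 was higher, so 3 of 5 genes lay past a mark that 7.09% of all genes passed. By direction, 3.37% of all genes were past it with a lower mean and 3.72% with a higher one. When means were scaled to all reads other than those of the ribosomal RNA precursor Rn45s, the median log2 ratio of all genes moved to 0.57, and Bcl6 and Prdm1 came to 0.075 and 0.037, above 0 but below that median. Because the 5 genes were chosen with results of these data known, that share is a description.

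**Figure D1:**
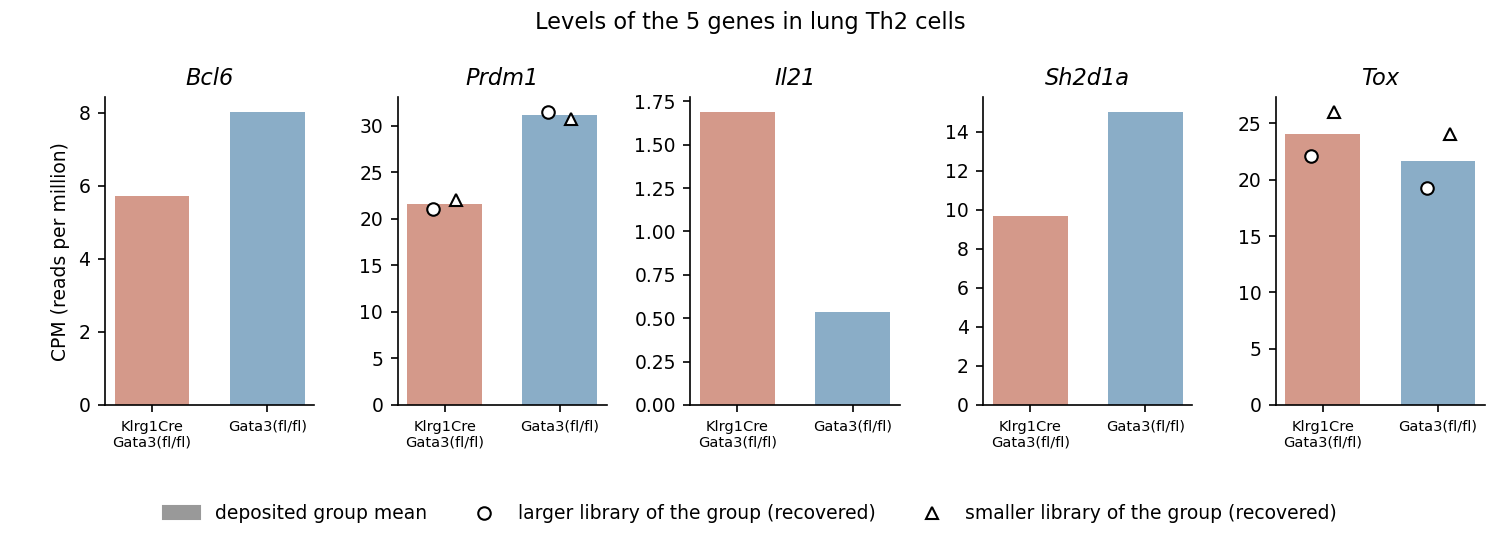
Deposited group means in CPM (reads scaled to library size) of the 5 genes, as bars from 0, with Klrg1Cre Gata3(fl/fl) left of Gata3(fl/fl). Open symbols are single libraries, which could be worked out for Prdm1 and Tox: both Klrg1Cre libraries of Prdm1 sit at 21.1 and 22.04 CPM below the control libraries at 31.5 and 30.8 CPM, while those of Tox overlap.

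Prdm1, the gene of BLIMP-1, averaged 21.6 CPM in Klrg1Cre cells and 31.1 CPM in control cells, as deposited. The libraries behind these means were worked out as 549 reads (21.1 CPM) and 321 reads (22.04 CPM) in Klrg1Cre and 1051 reads (31.5 CPM) and 983 reads (30.8 CPM) in control. Both Klrg1Cre libraries lay below both control libraries, as did 18.3% of the 5351 genes that could be worked out in this way, while 37.6% of them did not overlap in one direction or the other. The SD between libraries was 0.665 CPM in Klrg1Cre and 0.517 CPM in control (n = 2 libraries each). The log2 ratio was -0.53, a 1.44-fold lower level, with an unadjusted p of 0.00494 and an adjusted p of 0.412 in the authors' deposited table. By unadjusted p it ranked 140 of 11883 genes. Leaving out each library in turn gave log2 ratios between -0.56 and -0.50.

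The libraries of Prdm1 lay close together within each genotype. They differed by 0.063 on the log2 scale in Klrg1Cre and by 0.034 in control, where the median gene differed by 0.24 and 0.23. Of 4241 genes with single libraries and 1 CPM or more on average, 2.29% had a smaller difference between the libraries of a genotype, taking the larger of both. limma, a linear model that shares the spread across genes, gave Prdm1 a difference of -0.51 ± 0.142 (SE) on the log2(CPM + 1) scale, with an adjusted p of 0.313 over 4242 genes. In that model 7 genes (0.165%) passed an adjusted p of 0.05.

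**Figure D2:**
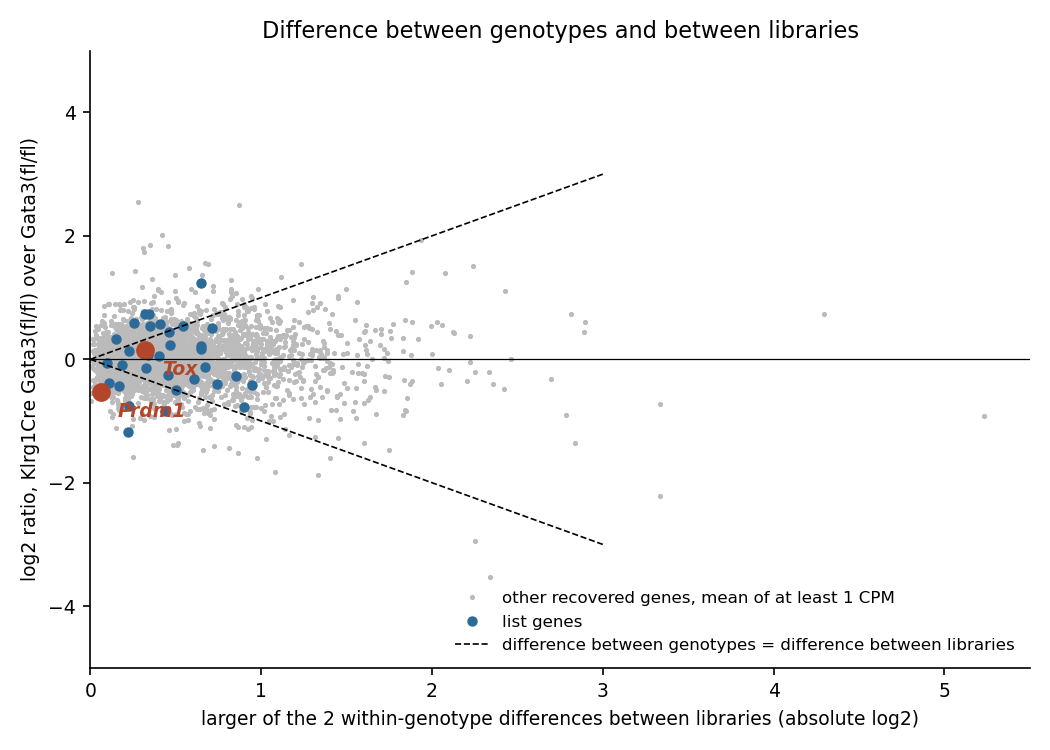
Log2 ratio between genotypes (vertical axis) against the larger of both differences between libraries of one genotype (horizontal axis, absolute log2) for 4241 genes with single libraries, list genes in blue. Prdm1 lies far left, with a difference between genotypes (-0.53) beyond that between libraries (0.063), and Tox lies inside the dashed lines where the 2 differences are equal.

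Bcl6 averaged 5.71 CPM in Klrg1Cre cells and 8.02 CPM in control cells, as deposited. That is a 1.40-fold lower level and a log2 ratio of -0.49, with an unadjusted p of 0.0545 and an adjusted p of 0.705 in the authors' deposited table. Its means could not be divided into whole reads, so no single libraries are given, and they stand for between 166.4 and 297.2 reads in Klrg1Cre and between 512.9 and 535.7 in control. Of 4324 genes whose mean lay within 2-fold of its own, 10.5% had a larger log2 ratio in either direction. Since Bcl6 and Prdm1 differed by nearly the same factor, the quotient of their mean CPM was 0.265 in Klrg1Cre and 0.258 in control. No spread could be given for this quotient.

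Il21 was the scarcest of the 5, averaging 1.69 CPM in Klrg1Cre cells and 0.533 CPM in control cells, as deposited. It was 3.17-fold higher (log2 ratio 1.66), with an unadjusted p of 0.0116 and an adjusted p of 0.551 in the authors' deposited table. These means stand for between 49.2 and 87.9 reads in Klrg1Cre and between 34.1 and 35.6 in control, and no split into libraries was found. A higher ratio was listed for 173 genes, and among 2249 genes of a mean within 2-fold of its own 2.71% had a larger log2 ratio in either direction. With 1 CPM added to both means the log2 ratio was 0.81, so the fold depended on how low levels are treated.

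Sh2d1a, the gene of SAP, averaged 9.68 CPM in Klrg1Cre cells and 15.02 CPM in control cells, as deposited. This 1.55-fold lower level (log2 ratio -0.63) had an unadjusted p of 0.0068 and an adjusted p of 0.473 in the authors' deposited table. Its reads numbered between 282 and 503.7 in Klrg1Cre and between 960.1 and 1003 in control, without a split into libraries. A lower ratio was listed for 993 of all genes, and among 4015 genes of like mean 2.79% had a larger log2 ratio in either direction.

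Tox averaged 24.1 CPM in Klrg1Cre cells and 21.7 CPM in control cells, as deposited. The libraries held 576 reads (22.1 CPM) and 379 reads (26.0 CPM) in Klrg1Cre and 644 reads (19.3 CPM) and 770 reads (24.1 CPM) in control. The smaller control library lay between both Klrg1Cre libraries, so the groups overlapped. The SD between libraries was 2.75 CPM in Klrg1Cre and 3.39 CPM in control (n = 2 libraries each). The log2 ratio of 0.15, whose adjusted p was 0.873 in the authors' deposited table, was smaller than the difference between the libraries of a genotype, 0.23 in Klrg1Cre and 0.32 in control. Without the larger control library the ratio came to -0.00069 on the log2 scale.

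Per kilobase of annotated exon, Prdm1 had the highest level of the 5 in both genotypes. Levels were 3.87, 3.16, 1.76, 0.852 and 0.321 CPM per kb in Klrg1Cre for Prdm1, Tox, Sh2d1a, Bcl6 and Il21, in that order. In control they were 5.58, 2.85, 2.73, 1.20 and 0.101 CPM per kb for the same genes. The libraries of Prdm1 lay above those of Tox in each genotype. The mean of Sh2d1a in control lay between the Tox libraries, at 2.54 and 3.17 CPM per kb. Sh2d1a has no single libraries, so the order of this neighbouring pair is not settled. Lengths are the union of exons in GENCODE M21, in which a gene on the opposite strand overlaps the span of Bcl6, Il21, Sh2d1a and Tox. Whether counting used strand is not given in the sources used here, and without it reads of such partners cannot be told apart.

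**Figure D3:**
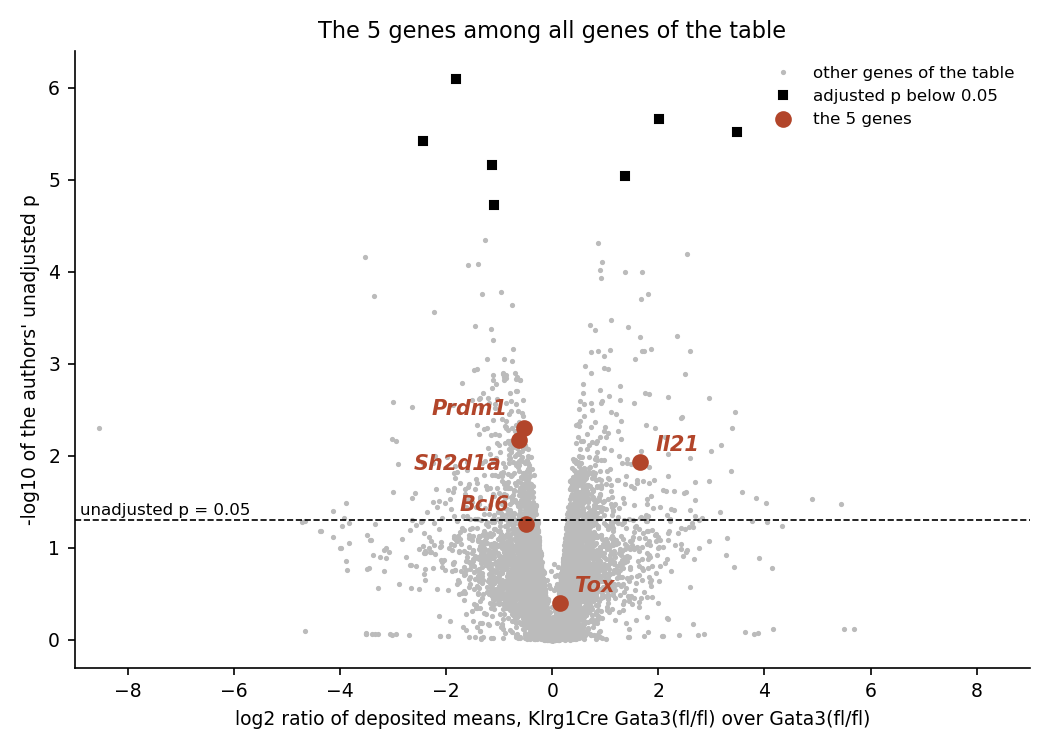
Each point is a gene, with the log2 ratio of the deposited means on the horizontal axis and -log10 of the authors' unadjusted p on the vertical axis (genes listed at 0 in a genotype are left out). Prdm1, Sh2d1a and Il21 lie above the dashed line that marks an unadjusted p of 0.05, and Bcl6 and Tox lie under it, all below the black squares of the genes that passed adjustment.

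Around these 5 genes, 88 of 93 further genes in 9 lists by role were listed. None passed the adjusted p of 0.05, while 22 of 88 (25%) had an unadjusted p below 0.05, against 7.09% of all 11883 genes. Of the 22, 11 were higher and 11 lower, where 3.72% and 3.37% of all genes were. The median log2 ratio of the 88 genes was -0.01, and over all genes it was 0.01. The lists were drawn up with earlier results of these data in view, and some genes stand in several. All values that follow are from the authors' deposited table unless libraries are named, with Klrg1Cre given against control. Where libraries are said not to overlap, the same held for 37.6% of the 5351 genes with single libraries.

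Relatives of TOX, BCL6 and BLIMP-1 had lower means in 6 of 10 listed genes (median log2 ratio -0.07). One of them, Zbtb32, encoding a BTB zinc finger repressor that restrains T cell activation, was past the unadjusted mark at 9.60 against 4.90 CPM, with an adjusted p of 0.51 in the authors' deposited table. Tox2, which acts beside TOX in Tfh, averaged 17.1 CPM in Klrg1Cre cells and 18.3 CPM in control cells. Tox3, Bcl6b and Zbtb16 were not listed.

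Tfh surface proteins and ligands had lower means in 8 of 12 genes, with a median log2 ratio of -0.36. Past the unadjusted mark, 4 were lower and 2 higher in the authors' deposited table. Icos, the costimulatory receptor that Tfh need, had libraries of 79.1 and 82.5 CPM in Klrg1Cre against 126.2 and 147.5 CPM in control, without overlap (adjusted p = 0.115 over all genes in that table). Cxcr5, the chemokine receptor that guides cells into follicles, had libraries of 1.04 and 0.893 CPM in Klrg1Cre against 2.04 and 2.32 CPM in control (adjusted p = 0.612 in the authors' deposited table). These receptors were lower in both Klrg1Cre libraries, and Cxcr5 was scarce in all 4 libraries.

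Of the same list, P2rx7, an ATP-gated channel that limits Tfh in the gut, was listed at 26.1 against 39.4 CPM. Tnfrsf4, encoding OX40, had Klrg1Cre libraries of 49.2 and 92.005 CPM and control libraries of 88.6 and 153.5 CPM, which overlap. Pdcd1, encoding the inhibitory receptor PD-1 that is abundant on Tfh, went the other way, with libraries of 265.6 and 275.5 CPM in Klrg1Cre against 167.1 and 229.6 CPM in control. Tnfsf8, encoding CD30 ligand, was also higher, at 34.3 and 36.3 CPM in the Klrg1Cre libraries against 23.7 and 18.9 CPM in the control libraries (adjusted p = 0.268 in the authors' deposited table). The adjusted p in that table was 0.610 for P2rx7, 0.637 for Tnfrsf4 and 0.599 for Pdcd1. Among the receptors and ligands of Tfh past the unadjusted mark, then, Icos, Cxcr5, P2rx7 and Tnfrsf4 had lower means and Pdcd1 and Tnfsf8 higher ones.

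Transcription factors grouped under the Tfh programme had lower means in 10 of 13 listed genes (median log2 ratio -0.14), with 2 lower and 0 higher past the unadjusted mark. These were Egr2, a factor induced by T cell receptor signals, at 9.75 against 16.7 CPM, and Id3 at 1.67 against 3.01 CPM. After the authors' adjustment over all genes, their deposited p were 0.527 and 0.698. The list was drawn up for factors that promote the programme, but Id3 inhibits E proteins and is not taken as a promoter here. Maf, which drives Il21 in Tfh, had libraries of 17.6 and 16.1 CPM in Klrg1Cre against 16.5 and 20.7 CPM in control, which overlap. For Batf they were 38.7 and 46.7 CPM against 36.0 and 57.3 CPM, overlapping as well. Ascl2 was not listed.

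Antagonists of the Tfh programme were split, with 6 of 11 higher (median log2 ratio 0.09), 4 higher and 2 lower past the unadjusted mark. Klf2, a factor of tissue exit that represses the Tfh programme, had libraries of 4.19 and 5.56 CPM in Klrg1Cre against 1.62 and 2.53 CPM in control, without overlap. Id2 had libraries of 177.9 and 160.2 CPM in Klrg1Cre against 136.3 and 131.6 CPM in control, also without overlap. Foxp1, a brake on Tfh differentiation, had deposited means of 32.2 against 21.2 CPM, and Runx2 22.4 against 17.5 CPM. Lower were 2 chains of the interleukin-2 receptor, whose STAT5 signal induces Prdm1 and represses Bcl6. Il2rg, the other receptor chain of the list, was not past the mark and had the higher mean, at 211.7 against 198.9 CPM. The part of this signal in the results was not tested.

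For the receptor genes, Il2rb had libraries of 89.6 and 96.7 CPM in Klrg1Cre against 119.3 and 125.0 CPM in control, and Il2ra 17.0 and 22.1 CPM against 22.9 and 32.4 CPM. Neither pair of groups overlapped, as for 37.6% of all genes with single libraries. For the 6 antagonists past the unadjusted mark, the adjusted p in the authors' deposited table lay between 0.321 and 0.698. Stat5a and Stat5b, which carry the signal, were listed at 24.6 against 25.9 CPM and 30.8 against 32.9 CPM.

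SLAM family receptors and SAP adaptors, the partners of Sh2d1a, were grouped with the kinase genes Fyn and Prkcq. Of these 10 listed genes 7 had higher means, with a median of 0.01, 1 higher and 1 lower past the unadjusted mark. Cd244a and Sh2d1b1, counted as higher, averaged below 1 CPM in each genotype. Among those with a mean of at least 1 CPM, 5 were higher, Fyn and Prkcq among them, and 3 lower, all of them SLAM receptors. Cd84, a SLAM receptor through which SAP sustains contacts with B cells, had a lower mean of 14.7 CPM, against 19.1 CPM in control (adjusted p = 0.698 in the authors' deposited table). Prkcq, encoding the kinase PKC-theta downstream of SAP, was higher, with libraries of 28.5 and 36.3 CPM in Klrg1Cre against 24.5 and 20.1 CPM in control (adjusted p = 0.589). Fyn, the kinase that SAP recruits, was listed at 16.7 against 16.6 CPM, and Slamf6 at 12.7 against 16.5 CPM. Slamf1 was lower as well, at 16.7 against 21.4 CPM. Counted as higher but close to control were Ly9 at 23.1 against 22.3 CPM, Cd48 at 44.7 against 44.3 CPM and Slamf7 at 7.92 against 7.92 CPM.

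Of the interleukin-21 receptor and its signalling, the receptor gene Il21r had libraries of 39.4 and 43.3 CPM in Klrg1Cre against 41.5 and 47.1 CPM in control, which overlap. Stat3, the main carrier of the interleukin-21 signal, averaged 112.6 CPM in Klrg1Cre cells and 124.3 CPM in control cells.

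The corepressors with which BCL6 acts showed 0 of 9 genes past the unadjusted mark in the authors' comparison, and 0 past an adjusted p of 0.05, with a median log2 ratio of 0.05. The most abundant, Ncor1, averaged 79.5 CPM in Klrg1Cre cells and 67.1 CPM in control cells, and Hdac4 averaged 22.9 CPM and 27.4 CPM.

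**Figure D4:**
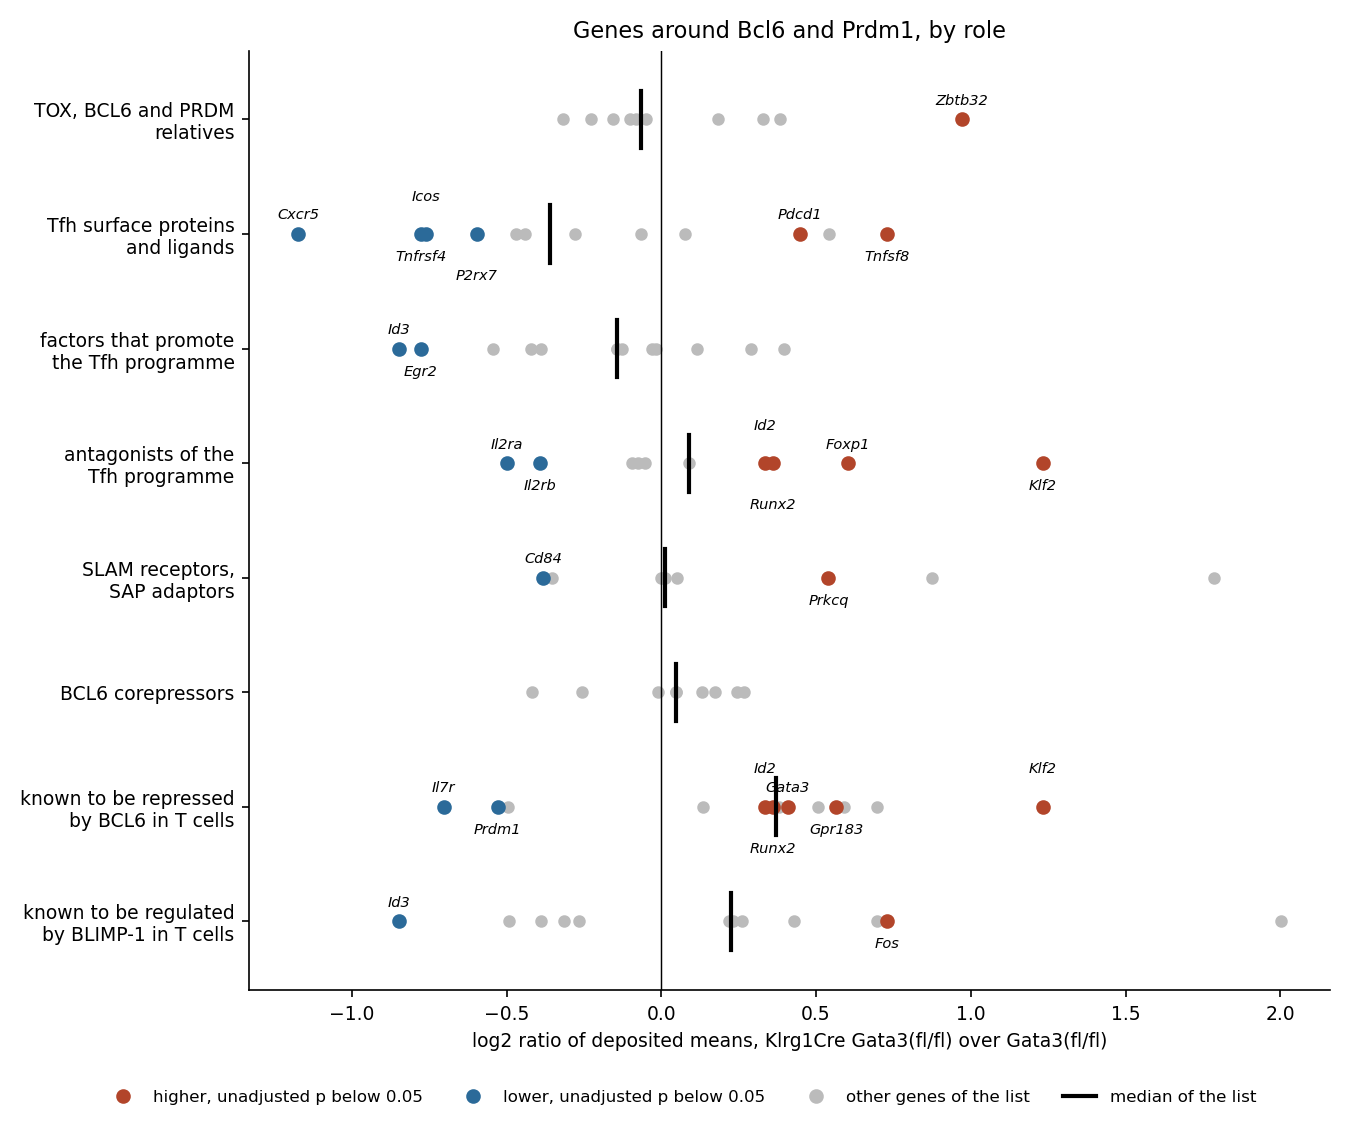
Log2 ratio of the deposited means for the listed genes of 8 of the lists, by role, with the median of each list as a black bar. Coloured, named points had an unadjusted p below 0.05, and the list known to be repressed by BCL6 has its median (0.37) farthest above 0.

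Genes that BCL6 is known to repress in T cells had higher means in 11 of 14 listed genes, with a median log2 ratio of 0.37, against 50.6% of all genes with a higher mean. Past the unadjusted mark 5 were higher and 2 lower, Prdm1 itself among the lower. Besides Klf2, Id2 and Runx2, the higher ones were Gpr183, encoding a receptor that draws cells to the follicle edge, and Gata3, at 293.9 against 221.4 CPM. Gpr183 had libraries of 18.1 and 22.3 CPM in Klrg1Cre against 11.7 and 15.6 CPM in control, without overlap. Il7r, encoding the interleukin-7 receptor, had the lower mean of 56.1 CPM, against 91.3 CPM in control, with an adjusted p of 0.268 in the authors' deposited table. Of 7 genes of this list with single libraries, 5 had both Klrg1Cre libraries above both control libraries, where 19.3% of all such genes did, and 1, Prdm1, had both below. Gata3 is the floxed gene of both genotypes, and whether its alleles were cut in these samples was not tested.

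Genes that BLIMP-1 is known to regulate in T cells had higher means in 7 of 12 genes (median 0.22), with 1 higher and 1 lower past the unadjusted mark. For the 7 of these genes with single libraries the median was 0.22 as well, and it turned to -0.14 without the smaller Klrg1Cre library, with 5 in place of 3 genes lower. The higher was Fos, with libraries of 68.7 and 71.6 CPM in Klrg1Cre against 37.3 and 47.3 CPM in control (adjusted p = 0.209 in the authors' deposited table), and the lower was Id3. Il10, a cytokine gene that BLIMP-1 promotes, had libraries of 8.38 and 10.2 CPM in Klrg1Cre against 6.65 and 9.20 CPM in control, which overlap. Havcr2 and Lag3, inhibitory receptor genes, had deposited means of 7.72 against 9.29 CPM and 91.5 against 113.7 CPM. The list mixes genes that BLIMP-1 promotes, such as Il10, and represses, such as Bcl6, so its counts and median have no set direction.

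The genes whose 4 libraries ran most like those of Prdm1 on the centred log2(CPM + 1) scale were Trib1, Ly75 and Ppp3r1, out of 2553 genes at 5 CPM or more in each genotype. Their Euclidean distances to Prdm1 were 0.0445, 0.0527 and 0.0568. Among the nearest to Tox were Arih1 and Naxe, at 0.0208 and 0.0506. With 4 libraries many genes can share such a pattern.

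Several of these genes are also used by other cells. Markers of regulatory T cells, which express Prdm1, Icos, Il2ra and Tnfrsf4, had lower means in 4 of 4 genes, and their deposited means summed to 73.1 CPM in Klrg1Cre and 152.8 CPM in control. The lineage factor gene Foxp3 was among them, at 50.6 against 104.6 CPM. In bulk samples, fewer cells of a type and less RNA per cell cannot be told apart, and the part of regulatory T cells in the results was not tested. B cells and plasma cells use Bcl6 and Prdm1 too. Summed over the 4 of 7 B cell markers listed, levels were 1.72 CPM in Klrg1Cre and 3.18 CPM in control, with Ms4a1 listed at 0 in Klrg1Cre and at 0.203 CPM in control. Pax5, Ebf1 and Cr2 were not listed, nor were the plasma cell markers Jchain, Mzb1 and Tnfrsf17. The other plasma cell markers, Xbp1 and Sdc1, which T cells and other cells can express, came to 38.4 CPM in Klrg1Cre and 43.3 CPM in control.

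Macrophage markers summed to 1604 CPM in Klrg1Cre and 2372 CPM in control, with 4 of 7 lower. This sum rested on Chil3, at 1124 against 1932 CPM, and without it (a sum chosen after seeing the data) the other 6 came to 479.9 CPM in Klrg1Cre and 439.6 CPM in control. Lyz2 had the higher mean in Klrg1Cre, at 395.9 against 364.04 CPM, and so had Cd68, at 68.0 against 57.5 CPM. Levels summed for dendritic cell markers were 7.03 CPM in Klrg1Cre and 6.69 CPM in control, over 3 of 5 genes listed. The 2 listed of 4 markers used for germinal centre B cells, Fas and Mki67, summed to 17.6 CPM in Klrg1Cre and 20.3 CPM in control. Cd8b1 was listed at 3.07 against 2.93 CPM and Cd8a was not listed. ILC2 markers summed to 156.6 CPM in Klrg1Cre and 258.0 CPM in control, with 4 of 5 lower. Klrg1, the gene the Cre is named for, was at 4.19 against 48.4 CPM and Arg1 at 53.9 against 98.5 CPM. Nmur1 went the other way, at 7.73 against 2.40 CPM, with an adjusted p of 0.0701 in the authors' deposited table, as for Klrg1. The part of these cells in the results was not tested. T cell markers were listed in 7 of 7 genes, summing to 888.1 CPM in Klrg1Cre and 892.5 CPM in control, and 6 of 7 Th2 markers were listed. Being listed cannot test the cell label, since 7 of 7 macrophage markers were listed too. The sort marker Il1rl1 was listed at 59.1 against 68.0 CPM.

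Library totals worked out from the means ran from 14564426 to 33379572 reads, so 1 read is worth between 0.030 and 0.069 CPM. Rn45s held 67.1% of Klrg1Cre reads and 51.4% of control reads, and reads outside the listed genes made up 14.7% and 30.8%. For Rn45s the authors' deposited table gave an unadjusted p of 0.709 and an adjusted p of 0.954, and no share could be had for single libraries. The part of these differences in the results was not tested.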

How the data were processed

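RNA from 2 samples per genotype was mapped to mm9 with STAR and handled in Partek, per the submitters' processing notes; versions are not given there. The authors deposited 1 table of 11883 genes, with no column of a single sample. The authors deposited each group mean in CPM, made from read counts scaled to library totals, with an offset of 0.0001 added, as read from the values. The deposited signal, named total counts, was 2 times the sum of both means. The deposited ratio is the quotient of the means, and the deposited score is the same fold with a sign. The deposited p-values come from a model not given in the sources used here, and their adjusted values equalled a Benjamini-Hochberg adjustment (tolerance 1e-06 in all 11883 rows).

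Because means carry no spread, differences are described with the authors' p, and no count model was fitted. A mean was split into whole reads of 2 libraries where 1 split lay within 1e-09 reads, after the pair of library totals that explained most low means had been found. This worked for 45.0% of genes in both genotypes. Which library is replicate 1 or 2 is unknown, so libraries are called larger and smaller by total. Split genes at 1 CPM or more on average were also fitted on the log2(CPM + 1) scale by limma 3.58.1 (R 4.3.3), with trend. Both steps were tested on simulated data. The split was given the library totals already found, so finding these totals was not tested. The differences simulated for limma were larger than those of Prdm1 and Tox, so differences of their size were not tested.

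Members and lists were chosen with earlier results of these data known. Named were the 5 genes, list genes with an unadjusted p below 0.05 (or the 2 most abundant), the 3 nearest genes of each split member and, chosen after their values were seen, examples with no such p. Some results that this rule covers are not reported here. Motifs were searched on both strands. Python 3.11.15 was used.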

Additional observations from a re-analysis of the deposited data

How the results depend on the processing

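Over 35 alternatives for the 5 genes, direction was kept in 32, but many of these could not have changed it. Adding the same CPM to both means cannot turn a ratio around. Scaling to listed genes other than Rn45s moved every log2 ratio by -0.026, and setting the median at 0 moved it by -0.005. Both shifts were smaller than the log2 ratio of any of the 5 genes. An adjusted p was computed only for Prdm1 and Tox, by limma on all libraries and with each left out, and none was below 0.05. The exceptions in direction were Tox without the larger control library (-0.00069 on the log2 scale, adjusted p = 0.999 by limma) and, when means were scaled to all reads other than those of Rn45s, Bcl6 (0.075) and Prdm1 (0.037). That scaling, chosen after seeing the data, moved every log2 ratio by 0.57 and the median of all genes to 0.57, so relative to the median both stayed lower by the same amount. Leaving out each library in turn gave log2 ratios of -0.56 to -0.50 for Prdm1 and -0.00069 to 0.32 for Tox. For Bcl6, Il21 and Sh2d1a no library could be left out. Il21 ranged from 0.81 with 1 CPM added to 2.23 with the Rn45s scaling.

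The count of genes past the adjusted p was 7, and 22 at a threshold of 0.10 (11 higher and 11 lower), none of them among the 5. By limma on the split genes it was 7, and 0 to 64 when a library was left out: 58 and 64 without the larger and smaller Klrg1Cre library, 0 and 1 without the larger and smaller control library, where 262 and 181 genes had an unadjusted p below 0.05. A genotype left with 1 library is assumed there to vary like the other, and the cause of these differences was not tested. Of 50 alternatives for list counts, 6 moved by over 1.5 times, all on leaving out 1 library among the split genes. Genes that BLIMP-1 is known to regulate had 5 lower without the smaller Klrg1Cre library (median log2 ratio -0.14) and 1 lower without the smaller control library (0.22), against 3 of 7 (0.22) with all. Without the smaller control library, factors grouped under the Tfh programme had 1 lower (0.14) against 3 of 4 (-0.14). In the same setting, BCL6 corepressors had 4 lower (-0.29) against 2 of 4 (-0.11). The list of SLAM receptors and SAP adaptors had 1 lower there, as without the larger Klrg1Cre library, against 0 of 2. Its 2 split genes were the kinase gene Prkcq and the scarce Cd244a, at 0.357 CPM in Klrg1Cre against 0.195 CPM in control. No paired analysis was possible because the table carries no replicate numbers. Il21, at 34.1 to 87.9 reads per genotype, is the one of the 5 genes that depth limits most.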

Other observations

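Among list genes outside the report's rule, chosen after their values were seen, some large ratios rested on 1 library. Il2, encoding interleukin-2, a cytokine related to interleukin-21, had libraries of 0.115 and 2.06 CPM in Klrg1Cre against 0.449 and 0.0939 CPM in control. Its deposited mean was 4.003-fold higher in Klrg1Cre with an adjusted p of 0.873 in the authors' deposited table, and the larger Klrg1Cre library lay between both control libraries. S1pr1, encoding the receptor for tissue exit, had libraries of 25.9 and 42.4 CPM in Klrg1Cre against 24.3 and 23.8 CPM in control, so the smaller Klrg1Cre library carried most of the difference. Tbx21, encoding the Th1 factor T-bet that BCL6 can repress, had libraries of 3.11 and 2.61 CPM in Klrg1Cre against 1.86 and 1.94 CPM in control, without overlap (adjusted p = 0.764 in that table).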
